A study of Homo sapiens with 6 samples.

Results

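A set of 10 genes of the transforming growth factor beta (TGF-beta) pathway were followed in UWB1.289 ovarian cancer cells after Olaparib. The set comprised the ligand genes TGFB1, TGFB2 and INHBA, the receptor genes TGFBR1 and TGFBR2, the signal transducers SMAD2 and SMAD3, the inhibitors SMAD7 and SKIL, and the readout gene TGFBI. These 10 genes were chosen by name and matched to their Ensembl identifiers, among 63677 genes listed in the counts table and 21729 that were tested. All 10 had more than 10 counts in total and passed the filter on low counts. Poly(A) RNA was sequenced from 3 samples treated with 4 µM Olaparib and 3 samples treated with the solvent DMSO (0 µM), all for 24 h. The treatment label and sample names give 4 µM, whereas the design text of the series gives 10 µM. Olaparib inhibits the DNA repair enzymes PARP1 and PARP2. The samples carry the genotype label WT, and the study describes UWB1.289 as BRCA1-deficient, a state that both groups share. All 6 samples come from this 1 line, so the values describe this line only.

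TGF-beta ligands are secreted in a latent form and, once released, bring together type II and type I receptor kinases. The type I receptor phosphorylates SMAD2 and SMAD3, which join SMAD4 and act on target genes in the nucleus. Activin A, a dimer of the INHBA product, uses its own receptors but passes its signal to SMAD2 and SMAD3 as well. SMAD7 and SKIL are themselves induced by the pathway and restrain it, and TGFBI encodes a secreted matrix protein named for its induction by TGF-beta. In carcinoma cells the pathway is known both for slowing growth and for promoting a mesenchymal state.

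Total counts lay between 35360458 and 39640775 per sample, and replicates of a group differed by more than counting error. Of 9 epithelial and serous carcinoma markers, 8 had more than 10 counts in total, and their summed level was 8050 to 8460 RPKM (the read count scaled to transcript length and library size) after Olaparib and 7950 to 8220 RPKM in DMSO. WT1, which marks serous carcinoma, had 8 counts over all samples. Markers of other cell types summed to far less than the epithelial ones. Summed fibroblast markers reached 2.6 to 3.13 RPKM after Olaparib and 2.38 to 2.81 RPKM in DMSO, mostly from THY1, with 4 of 6 at 10 counts or fewer and LUM at 0 counts. Summed immune markers reached 1.31 to 1.58 RPKM and 0.994 to 1.21 RPKM, with 2 of 5 at 10 counts or fewer. Summed endothelial markers reached 10.5 to 10.8 RPKM and 10.8 to 11.6 RPKM, with PECAM1 at 0 counts. CDH5 made up most of the endothelial sum, at a mean of 10.3 RPKM, and was slightly lower after Olaparib with separate groups and without passing the test (log2 fold change -0.07, adjusted p = 0.442, edgeR quasi-likelihood test). VWF, at 0.165 RPKM, was higher (log2 fold change 0.68, adjusted p = 0.0106), as was the serous marker PAX8 (log2 fold change 0.10, adjusted p = 0.0399). The part of these markers in the results was not tested. In such bulk samples, fewer cells of a type and less RNA per cell cannot be told apart.

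The sequences upstream of INHBA, TGFBI and SMAD7 are shown because INHBA and TGFBI were the 2 of the 10 genes that passed the test and SMAD7 is a classical SMAD target of the set. Each run is the 250 bases directly before the transcription start in RefSeq on GRCh38.p14, read 5′ to 3′ on the strand of the gene. Capitals mark every match, on either strand, to the SMAD-related letters GTCTAGAC, CAGAC and GGCGC and to the AP-1 letters TGANTCA. They also mark the TATA box letters TATAAA, which were searched on the strand of the gene only. The INHBA window lies at chr7:41703091-41703340 on the minus strand, the TGFBI window at chr5:136028738-136028987 on the plus strand and the SMAD7 window at chr18:48950966-48951215 on the minus strand. None of these 3 windows overlaps an annotated exon. The INHBA window precedes the MANE Select start but lies inside the annotated bounds of the gene, which reach base 41705834, so other annotated INHBA transcripts start further upstream.
INHBA: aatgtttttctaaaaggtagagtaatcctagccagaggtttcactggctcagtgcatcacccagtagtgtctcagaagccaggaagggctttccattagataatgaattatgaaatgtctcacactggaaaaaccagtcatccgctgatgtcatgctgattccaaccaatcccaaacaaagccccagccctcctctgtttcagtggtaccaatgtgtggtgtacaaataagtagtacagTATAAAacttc
TGFBI: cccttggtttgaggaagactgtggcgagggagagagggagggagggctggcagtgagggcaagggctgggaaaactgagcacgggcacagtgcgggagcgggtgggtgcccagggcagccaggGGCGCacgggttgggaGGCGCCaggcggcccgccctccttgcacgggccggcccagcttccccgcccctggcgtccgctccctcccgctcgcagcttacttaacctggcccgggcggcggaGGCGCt
SMAD7: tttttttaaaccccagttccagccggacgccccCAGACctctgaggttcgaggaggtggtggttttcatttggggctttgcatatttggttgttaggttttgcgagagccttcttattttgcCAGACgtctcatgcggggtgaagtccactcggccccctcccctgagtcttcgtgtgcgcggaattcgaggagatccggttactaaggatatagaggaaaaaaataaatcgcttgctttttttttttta
The INHBA window held a TATAAA 11 bases before the start and no match to the other motifs. The TGFBI window held GGCGC at 127, 111, 110 and 6 bases before the start, of which the matches at 111 and 110 overlap on opposite strands. In the SMAD7 window CAGAC stood 217 and 128 bases before the start. The GC content was 42.8% for INHBA, 48.0% for SMAD7 and 72.8% for TGFBI, against a median of 58.0% over 34943 windows of this length.

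All 10 genes had a promoter window. CAGAC was found in 4 of the 10 and in 38.0% of all 34943 windows, and GGCGC in 7 of the 10 and in 44.4% of all windows. TATAAA, searched on the strand of the gene only, was found in 2 of the 10, TGFB2 and INHBA, and in 6.82% of all windows. GTCTAGAC, found in 0.183% of all windows, and TGANTCA, found in 6.59%, were not found in the 10 windows. The TGFB2 and SKIL windows lay wholly in annotated exons, of TGFB2-AS1 and of SKIL itself. Those of SMAD2, TGFBR1 and TGFB1 held 114, 76 and 4 exonic bases. The windows of INHBA, TGFBR1, SMAD2, SMAD3 and SKIL lay inside the annotated bounds of their genes. These matches describe letters in the windows only.

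Across the 10 genes, 2 rose after Olaparib at an adjusted p under 0.05 (edgeR quasi-likelihood test, Benjamini-Hochberg adjustment over all 21729 genes), and 0 fell. The 2 genes were INHBA and TGFBI. Over all genes tested, 3.36% passed in either direction, 2.15% were higher and 1.21% were lower. With an added condition of a fold change above 1.2, INHBA alone remained among the 10, against 1.21% of all genes. The 3 Olaparib values lay entirely apart from the 3 DMSO values in 4 of the 10 genes, INHBA, TGFBI, SMAD3 and TGFBR2, against 19.3% of all genes. At an unadjusted p under 0.05 there were 3 genes, which adds SMAD3, against 14.8% of all genes. The median log2 fold change of the 10 was 0.05, and that of all genes tested was -0.0042. Since most of the 10 are well expressed, the share of passing genes among those with a mean of at least 1000 normalized counts is given too, which was 5.88% of 6787 genes.

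**Figure D1:**
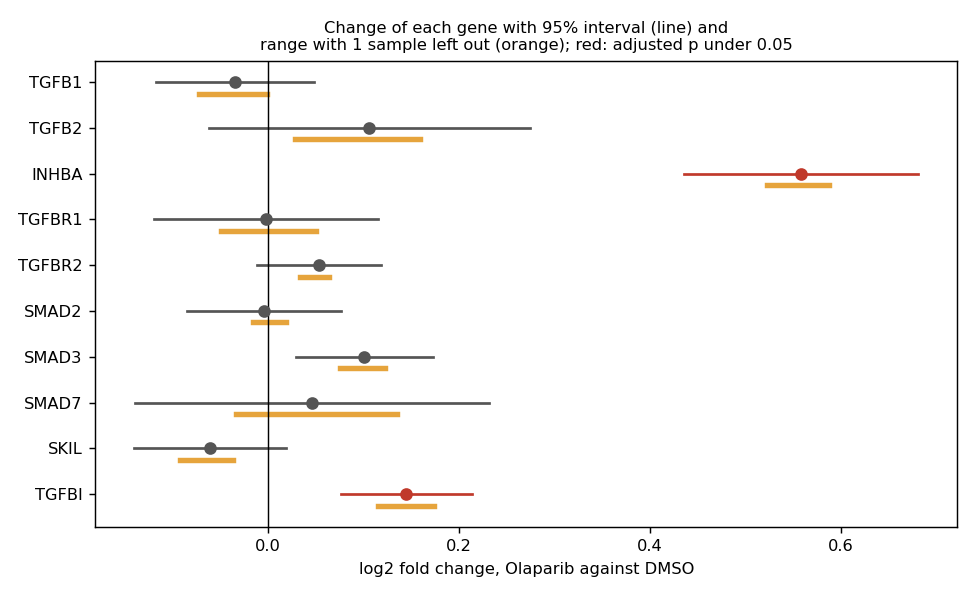
Log2 fold change of each of the 10 genes, Olaparib against DMSO, as points with their 95% confidence intervals as thin lines. Thick orange bars give the range when each of the 6 samples is left out in turn, and red marks INHBA and TGFBI, the genes with an adjusted p under 0.05. INHBA stands apart at 0.56, while the intervals of 7 genes cross 0.

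Among the ligands, the INHBA transcript rose by 47.3% and the TGFB1 and TGFB2 transcripts did not pass the test. INHBA (ENSG00000122641, GRCh38, chromosome 7, 41667168 to 41705834) encodes the subunit of activin A. Its normalized counts were 556.7, 507.7 and 524.9 after Olaparib and 374.3, 353.0 and 352.7 in DMSO. Every Olaparib sample was above every DMSO sample, with a gap of more than 100 counts between the groups. The means were 529.8 ± 24.8 and 360.0 ± 12.4 (SD, n = 3 each). Its log2 fold change was 0.56 (SE 0.06, 95% interval 0.44 to 0.68, adjusted p = 1.24e-07 by edgeR), and by p-value it ranked 16 among all genes tested. With 1 sample left out in turn, the log2 fold change of INHBA stayed between 0.52 and 0.59 and passed each time. Of the exonic bases of INHBA, 2.99% overlap the antisense gene INHBA-AS1, and the strand setting of the counting is not given in the sources used here.

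TGFB1 (ENSG00000105329, chromosome 19, 41301587 to 41353922), the most widely expressed TGF-beta ligand, had normalized counts of 2937, 3237 and 3052 after Olaparib and 3045, 3121 and 3283 in DMSO. The ranges of the 2 groups overlapped in part. Its log2 fold change was -0.03 (SE 0.041, 95% interval -0.12 to 0.05, adjusted p = 0.765 by edgeR). Of its exonic bases, 6.59% overlap HNRNPUL1 on the other strand. TGFB2 (ENSG00000092969, chromosome 1, 218345336 to 218444619), a second TGF-beta isoform, gave 263.2, 249.2 and 248.5 normalized counts after Olaparib and 253.0, 209.8 and 244.6 in DMSO. Its groups overlapped too, and DMSO replicate 2 was the lowest sample. The log2 fold change of TGFB2 was 0.11 (SE 0.083, 95% interval -0.06 to 0.27, adjusted p = 0.609 by edgeR), and 11.6% of its exonic bases overlap the antisense gene TGFB2-AS1.

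The receptor transcripts did not pass the test. TGFBR1 (ENSG00000106799, chromosome 9, 99104038 to 99154192) encodes the type I receptor kinase that phosphorylates SMAD2 and SMAD3. Its normalized counts were 604.2, 525.2 and 569.6 after Olaparib and 601.2, 540.3 and 561.2 in DMSO. The groups covered nearly the same range, and the log2 fold change was -0.0017 (SE 0.057, 95% interval -0.12 to 0.12, adjusted p = 0.99 by edgeR). TGFBR2 (ENSG00000163513, chromosome 3, 30606601 to 30694142) encodes the type II receptor that binds the ligand. It showed 6000, 5833 and 5897 normalized counts after Olaparib and 5521, 5784 and 5785 in DMSO. The 3 Olaparib values of TGFBR2 were above the 3 DMSO values, by a narrow margin, and the log2 fold change was 0.05 (SE 0.032, 95% interval -0.01 to 0.12, adjusted p = 0.468 by edgeR).

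Of the signal transducers, SMAD2 gave overlapping groups and SMAD3 was slightly higher after Olaparib without passing the test. SMAD2 (ENSG00000175387, chromosome 18, 47808957 to 47931146) showed 2345, 2231 and 2336 normalized counts after Olaparib and 2319, 2309 and 2305 in DMSO. The DMSO values lay inside the Olaparib range, and the log2 fold change was -0.0044 (SE 0.039, 95% interval -0.09 to 0.08, adjusted p = 0.98 by edgeR). SMAD3 (ENSG00000166949, chromosome 15, 67063763 to 67195173), which binds DNA directly, showed 4354, 4402 and 4263 normalized counts after Olaparib and 3891, 4074 and 4173 in DMSO. The groups did not overlap. The means of SMAD3 were 4340 ± 71.0 and 4046 ± 143 (SD, n = 3 each), and its log2 fold change was 0.10 (SE 0.035, 95% interval 0.03 to 0.17). The edgeR p of SMAD3 was 0.00734 before and 0.124 after adjustment over all genes tested.

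The inhibitors, both induced by the pathway, did not pass the test. SMAD7 (ENSG00000101665, chromosome 18, 48919853 to 48950965), which blocks the type I receptor, gave 219.6, 248.2 and 210.7 normalized counts after Olaparib and 217.5, 194.2 and 244.6 in DMSO. The groups overlapped and SMAD7 had the widest spread of the 10 genes in both groups, with a coefficient of variation of 8.66% after Olaparib and 11.5% in DMSO. Its log2 fold change was 0.05 (SE 0.091, 95% interval -0.14 to 0.23, adjusted p = 0.877 by edgeR). SKIL (ENSG00000136603, chromosome 3, 170357342 to 170396835), which represses transcription by SMAD complexes, showed 3227, 2985 and 3038 normalized counts after Olaparib and 3302, 3114 and 3230 in DMSO. Olaparib replicate 1 lay within the DMSO range and the other 2 Olaparib samples below it. The log2 fold change of SKIL was -0.06 (SE 0.039, 95% interval -0.14 to 0.02, adjusted p = 0.513 by edgeR).

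TGFBI, the readout gene, rose by 10.6%. TGFBI (ENSG00000120708, chromosome 5, 136028988 to 136063818) showed 5484, 5385 and 5448 normalized counts after Olaparib and 4918, 4715 and 5124 in DMSO. All Olaparib samples were above all DMSO samples, and the DMSO samples were spread more widely. The means were 5439 ± 50 and 4919 ± 205 (SD, n = 3 each). The log2 fold change was 0.14 (SE 0.034, 95% interval 0.08 to 0.21, adjusted p = 0.00945 by edgeR), and TGFBI ranked 337 by p-value. Without DMSO replicate 2, the lowest of the DMSO samples, the log2 fold change of TGFBI was 0.115 and its adjusted p was 0.141, so its call rests on that sample. When any other sample was left out, TGFBI passed.

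**Figure D2:**
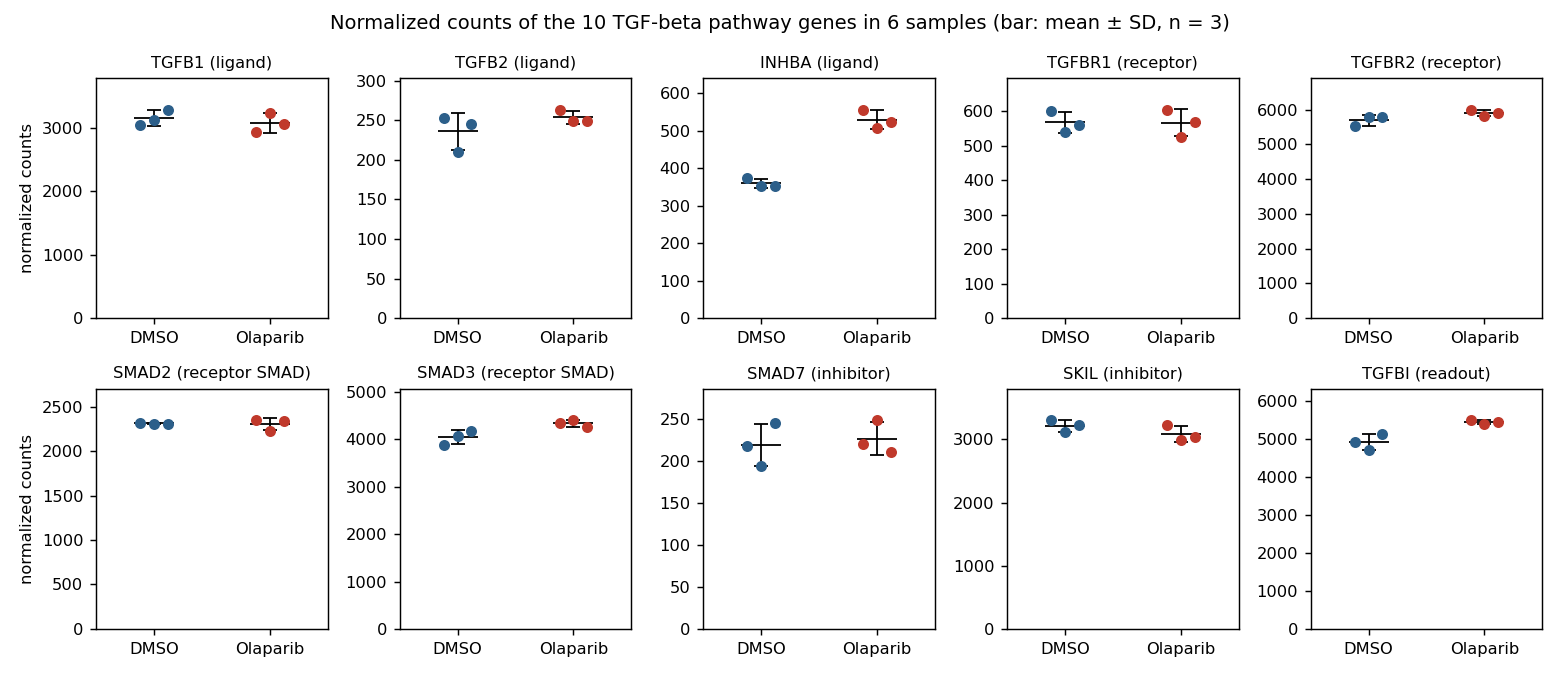
Normalized counts of the 10 genes in the 3 DMSO (blue) and 3 Olaparib (red) samples, with the mean and SD (n = 3) as bars and each vertical axis starting at 0. Relative to its level, INHBA shows the widest gap between the groups, from at most 374.3 in DMSO to at least 507.7 after Olaparib, and TGFBI, SMAD3 and TGFBR2 show narrow gaps.

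Levels were compared between genes per length, as RPKM with the length of the MANE Select transcript. Over the 6 samples TGFBI was highest at a mean of 51.0 RPKM (range 46.4 to 54.0), followed by TGFBR2 at 34.2 RPKM (32.6 to 35.4), TGFB1 at 29.9 RPKM (28.2 to 31.5), SMAD3 at 17.3 RPKM (16.1 to 18.2) and SKIL at 11.8 RPKM (11.1 to 12.3). The ranges of these 5 genes did not overlap. A second tier lay well below, with TGFBR1 at 2.33 RPKM (2.16 to 2.49), INHBA at 1.97 RPKM (1.56 to 2.46), SMAD2 at 1.78 RPKM (1.72 to 1.81), SMAD7 at 1.78 RPKM (1.55 to 1.98) and TGFB2 at 1.11 RPKM (0.955 to 1.2). In the second tier the neighbours TGFBR1 and INHBA, INHBA and SMAD2, and SMAD2 and SMAD7 did not differ beyond their ranges. The low RPKM of SMAD2 rests largely on its MANE Select length of 34626 bases. Before scaling to length, its mean normalized counts were 2304 after Olaparib and 2311 in DMSO, above 566.3 and 567.6 for TGFBR1. Those of SKIL, in the upper tier, were 3083 and 3215. The union of all exons is similarly long for SMAD2, at 36426 bases. The order depends on the length used. With the union of all annotated exons as the length the mean of TGFBI was 17.9 RPKM, below TGFB1 at 25.5 RPKM and TGFBR2 at 22.6 RPKM, and the mean of INHBA was 1.43 RPKM, below SMAD2 at 1.69 RPKM and SMAD7 at 1.51 RPKM.

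**Figure D3:**
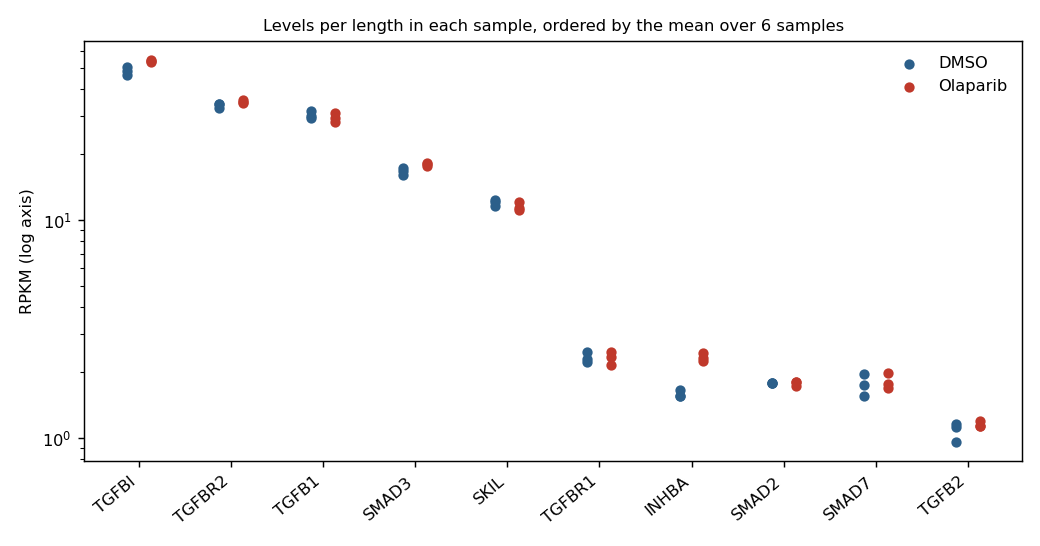
Level of each of the 10 genes in RPKM on a log axis, with 1 point for each DMSO (blue) and Olaparib (red) sample and the genes ordered by their mean over 6 samples. The 5 genes on the left lie above 11 RPKM in every sample and the 5 on the right below 2.5 RPKM, and INHBA is the only gene of the lower tier with its groups apart. The place of SMAD2 rests largely on its MANE Select length of 34626 bases.

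Ratios of RPKM within each sample show how the transcripts of ligands, receptors and SMADs stood to each other, as a description. TGFB1 exceeded TGFB2 by 25.6 ± 1.94 times after Olaparib and by 28.4 ± 3.0 times in DMSO, with overlapping groups. INHBB, the gene of the other main activin subunit, exceeded INHBA by 13.6 ± 0.978 times after Olaparib and by 19.8 ± 0.635 times in DMSO, and these groups were apart. The activin-binding inhibitor FSTL3 exceeded INHBA by 10.9 ± 0.783 times and by 16 ± 0.956 times, with the groups apart. INHBA is the denominator of both ratios, and the groups overlapped for INHBB and FSTL3, with log2 fold changes of 0.0106 and -0.0046. Both ratios therefore restate the change of INHBA. Between the receptors, TGFBR2 exceeded TGFBR1 by 15.0 ± 0.855 times after Olaparib and 14.4 ± 1.13 times in DMSO, with overlap. SMAD3 exceeded SMAD2 by 10.1 ± 0.419 times and 9.38 ± 0.36 times, with the groups apart (SD, n = 3 for each value). The SMAD3 to SMAD2 ratio rests largely on the MANE Select lengths, 6464 bases for SMAD3 and 34626 bases for SMAD2. Before scaling to length, mean normalized counts after Olaparib and in DMSO were 4340 and 4046 for SMAD3 and 2304 and 2311 for SMAD2. For SKIL to SMAD7 the ratio was 6.4 ± 0.684 after Olaparib and 6.91 ± 0.679 in DMSO, with overlap.

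The rest of the pathway was read from 5 lists of 79 genes in all, of which 75 were tested. Of these 75, 6 rose, 1 fell and the median log2 fold change was 0.01, beside 3.36% of all genes tested in either direction. Among genes with a mean of at least 1000 normalized counts, a level that many list genes reached, that share was 5.88%. The genes that rose were THBS1, ITGB6, TGFBR3, PMEPA1, BHLHE40 and LMCD1, and the gene that fell was ID1. Of these, THBS1, TGFBR3 and BHLHE40 also had a fold change above 1.2. For BHLHE40 the log2 fold change of 0.2631 lay at that threshold, 0.263, and ranged from 0.221 to 0.299 with 1 sample left out. The number of list genes that passed, 7 with all samples, was 3 without Olaparib replicate 3, DMSO replicate 2 or DMSO replicate 3 and 4 without DMSO replicate 1. At an unadjusted p under 0.05 there were 19 genes, beside 14.8% of all genes, and in 20 the groups did not overlap, beside 19.3% of all genes. For the unadjusted p and the separate groups, only the share over all genes is given, not that at a matched level.

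**Figure D4:**
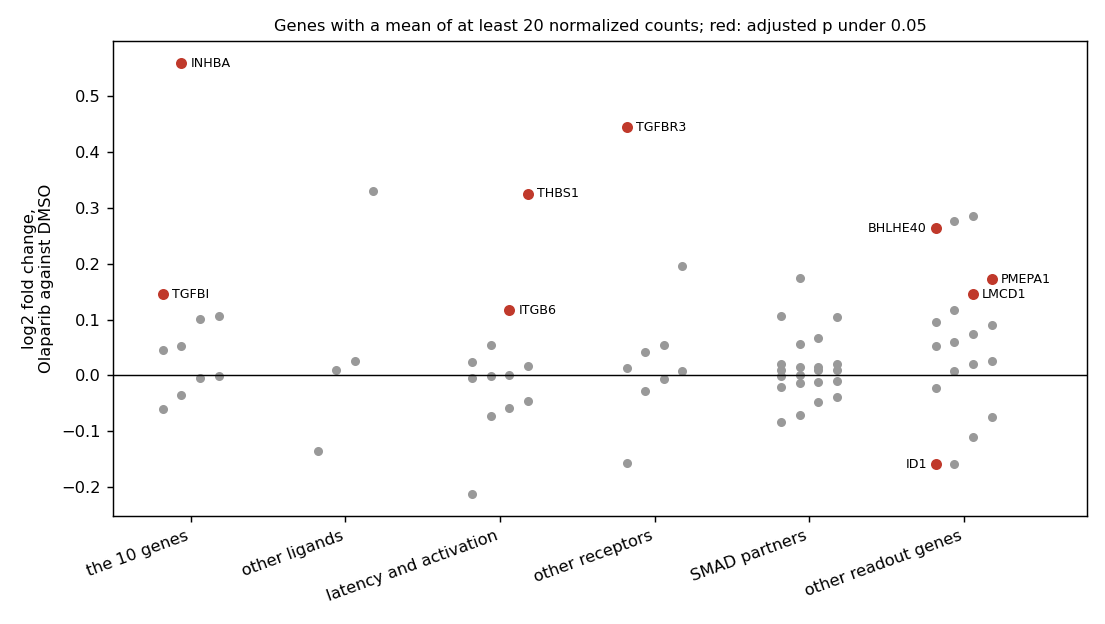
Log2 fold change, Olaparib against DMSO, of the 10 genes and of the genes of the 5 pathway lists with a mean of at least 20 normalized counts, with red for an adjusted p under 0.05. Red points lie above 0 for INHBA, TGFBI and 6 list genes and below 0 for ID1, and most other genes lie close to 0.

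Of 7 tested genes among 10 other TGF-beta and activin ligands, 0 passed the test by edgeR and 0 had an unadjusted p under 0.05. The shares of all genes tested were 3.36% and 14.8%. MSTN, NODAL and LEFTY2 had too few counts to be tested. TGFB3, the remaining TGF-beta isoform, was low, at 24.87 ± 7.43 normalized counts after Olaparib and 19.93 ± 3.98 in DMSO (log2 fold change 0.33, SE 0.26, adjusted p = 0.622). INHBB had 3804 ± 102 and 3776 ± 28.7 normalized counts (log2 fold change 0.01, adjusted p = 0.938), so the activin subunit that was more abundant per length gave overlapping groups. For INHBE, a liver-enriched activin subunit gene, the log2 fold change was -0.14 (adjusted p = 0.518).

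Of 14 tested genes for ligand latency, activation and binding, 2 rose and 0 fell, beside 2.15% and 1.21% of all genes tested. Their median log2 fold change was 0.0090. DCN, which encodes the TGF-beta-binding matrix protein decorin, had too few counts to be tested. THBS1 (ENSG00000137801, chromosome 15, 39581079 to 39599466) encodes thrombospondin-1, which can release latent TGF-beta. It showed 24040, 22710 and 22780 normalized counts after Olaparib and 19100, 18060 and 18360 in DMSO. All Olaparib values were above all DMSO values, and the log2 fold change of THBS1 was 0.32 (SE 0.029, adjusted p = 2.91e-09 by edgeR). ITGB6, the beta subunit of an integrin that activates latent TGF-beta, had 10700 ± 277 and 9864 ± 275 normalized counts (log2 fold change 0.12, SE 0.03, adjusted p = 0.0198). Its adjusted p reached 0.186 without DMSO replicate 2, and it passed in 2 of 6 fits with 1 sample left out.

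Of 11 other receptors and co-receptors, 1 rose and 0 fell, beside 2.15% and 1.21% of all genes tested. Their median log2 fold change was 0.0080. TGFBR3 (ENSG00000069702, chromosome 1, 91680343 to 91906335), the co-receptor betaglycan that presents TGFB2 to TGFBR2, showed 137.6, 116.9 and 138.2 normalized counts after Olaparib and 94.1, 93.16 and 101.4 in DMSO. Its groups did not overlap, and the log2 fold change was 0.44 (SE 0.12, adjusted p = 0.0277 by edgeR). With DESeq2 the adjusted p of TGFBR3 was 0.113, and it passed in 1 of 6 fits with 1 sample left out. The most abundant genes of the list per length were ENG, a co-receptor, with a log2 fold change of 0.0080 (adjusted p = 0.965), and ACVR1, a type I receptor, with -0.0071 (adjusted p = 0.965). With the union of all exons as the length ACVR1 fell from 9.97 to 3.38 RPKM and was passed by other genes of the list. TDGF1 had 12 counts over all samples and is given no direction.

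Of 23 SMAD partners and regulators, 0 passed the test by edgeR and 2 had an unadjusted p under 0.05, beside 3.36% and 14.8% of all genes. The median log2 fold change of this list was 0.0090. SMAD4, the shared partner of SMAD2 and SMAD3, had 1652 ± 45.5 normalized counts after Olaparib and 1650 ± 26.4 in DMSO (log2 fold change 0.0014, 95% interval -0.08 to 0.09, adjusted p = 0.989). Of its exonic bases, 4.93% overlap another gene on the same strand. FKBP1A, which binds the type I receptor, was the most abundant gene of this list at 214 RPKM, with a log2 fold change of 0.07 (adjusted p = 0.236). STRAP, which binds SMAD7, followed at 136 RPKM with a log2 fold change of 0.01 (adjusted p = 0.923). With the union of all exons as the length this order was reversed, at 54.3 RPKM for FKBP1A and 115 RPKM for STRAP. The 2 genes with an unadjusted p under 0.05 were FKBP1A and TAB3.

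Of 20 other readout genes, 3 rose and 1 fell, beside 2.15% and 1.21% of all genes tested. At an unadjusted p under 0.05 there were 11, beside 14.8%, and in 9 the groups did not overlap, beside 19.3%. These shares cover all genes tested, whereas many genes of this list were well expressed. Of genes with a mean of at least 1000 normalized counts, 5.88% passed at an adjusted p under 0.05 in either direction. The median log2 fold change of this list was 0.06. PMEPA1, whose product restrains SMAD signalling, showed 20440, 20580 and 19650 normalized counts after Olaparib and 17880, 17660 and 18300 in DMSO. All 3 Olaparib samples of PMEPA1 were higher, with a log2 fold change of 0.17 (SE 0.028, adjusted p = 1.13e-04 by edgeR). BHLHE40, a transcriptional repressor, had 1222 ± 68.1 and 1018 ± 32.6 normalized counts (log2 fold change 0.26, SE 0.048, adjusted p = 6.16e-04), with 12.8% of its exonic bases overlapping BHLHE40-AS1 on the other strand.

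LMCD1, a LIM domain protein gene, had 2055 ± 28.6 normalized counts after Olaparib and 1858 ± 38.2 in DMSO (log2 fold change 0.15, SE 0.04, adjusted p = 0.0357). ID1, a helix-loop-helix inhibitor best known as a target of BMP signalling, fell, with 1564, 1725 and 1716 normalized counts after Olaparib and 1899, 1869 and 1819 in DMSO. Its groups did not overlap and the log2 fold change of ID1 was -0.16 (SE 0.044, adjusted p = 0.0353 by edgeR). LMCD1 and ID1 each passed in 1 of 6 fits with 1 sample left out. The adjusted p of LMCD1 reached 0.14 without Olaparib replicate 3, and that of ID1 reached 0.159 without Olaparib replicate 1. The most abundant readout genes per length were FN1, the matrix protein fibronectin, at 626 RPKM and CCN2, a secreted matricellular protein, at 447 RPKM. With the union of all exons as the length FN1 was at 305 RPKM, below CCN2 at 447 RPKM. For FN1 the log2 fold change was 0.0083 (adjusted p = 0.936). CCN2 had 38080 ± 1050 normalized counts after Olaparib and 40100 ± 697 in DMSO, with separate groups, a log2 fold change of -0.07 and an adjusted p of 0.142.

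**Figure D5:**
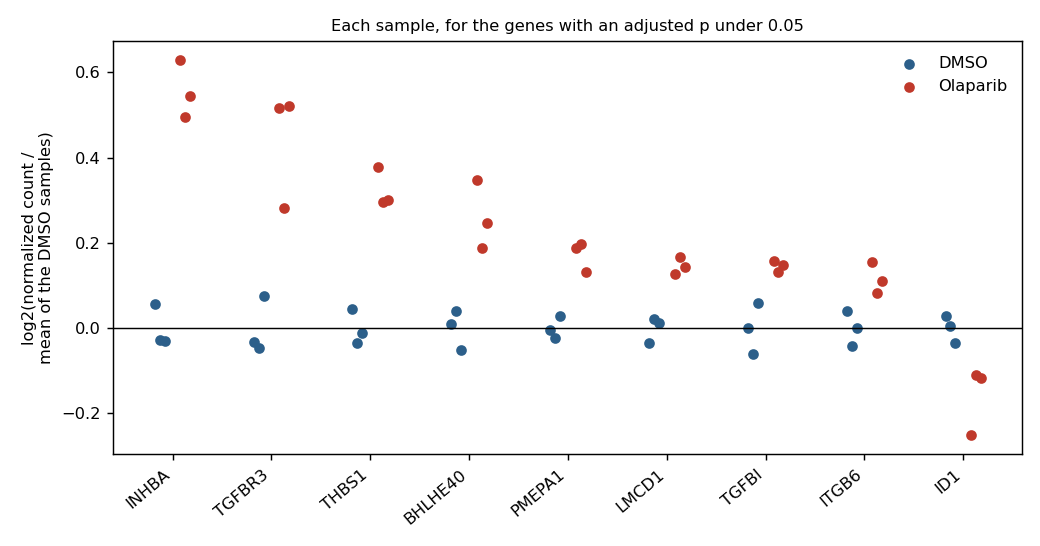
Log2 of the normalized count over the mean of the DMSO samples, for each DMSO (blue) and Olaparib (red) sample, for INHBA, TGFBI and the 7 list genes with an adjusted p under 0.05. All Olaparib points lie above all DMSO points except for ID1, where they lie below, and the gap is widest for INHBA.

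An exact permutation test on a single gene with 3 samples against 3 cannot give a two-sided p below 0.1, so the calls rest on the spread that edgeR shares across genes.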

How the data were processed

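The authors deposited unnormalized integer read counts for each gene in 3 Olaparib and 3 DMSO samples of UWB1.289 cells, from 3 dishes per condition. Per the study's methods, the authors trimmed stranded poly(A) reads with Trimmomatic, mapped them to GRCh38 with STAR, marked duplicates with Picard and counted with featureCounts. The strand setting is not given in the sources used here. Samples were grouped by their labels, and all 6 were used.

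Genes with more than 10 counts in total were kept, scaled by TMM and tested, Olaparib against DMSO, with edgeR 4.0.16 (quasi-likelihood, Benjamini-Hochberg adjustment, threshold 0.05) in R 4.3.3. The same model gave the standard errors and 95% intervals. Normalized counts are counts scaled to the mean effective library size of 37430446. Scaling factors were 0.995 to 1.01. RPKM used MANE Select lengths from GENCODE 44, in place of the planned lengths, since the table has no length column. This annotation included 81.9% of all identifiers and 96% of the tested ones. Promoter windows came from RefSeq (GRCh38.p14). Alternatives were DESeq2 1.42.0, limma 3.58.1 voom, other scalings and filters, a replicate block and leaving out each sample. The procedure was tested on simulated counts. There edgeR recovered 65 of 100 log2 changes of size 0.25 and 92 of 100 of size 0.5, with 3 false calls. Smaller changes were not simulated, so a gene that did not pass may still have changed. Figures were drawn with matplotlib 3.10.9.

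The members and the gene lists were chosen with earlier results of these data known. Named genes were the 10 members, every list gene with an adjusted p under 0.05, the 2 genes of each list with the highest mean RPKM, SMAD4, TGFB3 and TGFBR3, and the genes behind a count of 5 or fewer. TDGF1, FSTL3, WT1, LUM, PECAM1, THY1, CDH5, PAX8 and VWF were named after their values were seen. With these totals a gene with low counts is limited by counting error, which covers the libraries only. An item withheld from the lists is not reported here.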

Additional observations from a re-analysis of the deposited data

How the results depend on the processing

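INHBA kept its direction and its call under every alternative run, and TGFBI under every alternative except the fit without DMSO replicate 2 and the added fold condition. Over the settings tried for the 10 genes, 123 values kept direction and side of the threshold, 1 lost its call, 1 gained one and 5 changed sign. With 1 sample left out in turn, log2 fold changes ranged from 0.115 to 0.174 for TGFBI, -0.049 to 0.05 for TGFBR1, -0.016 to 0.019 for SMAD2 and -0.034 to 0.135 for SMAD7, and the number of the 10 genes that passed from 1 to 2. With the fold condition 1 of the 10 passed, INHBA. For the pathway lists that count was 7 and ranged from 3 to 7, and for all genes it was 730 and ranged from 398 to 870, with 398 without DMSO replicate 2, 401 without DMSO replicate 3 and 439 without Olaparib replicate 3. SMAD4 had a log2 fold change of -0.008 with upper quartile scaling, -0.001 with the filterByExpr filter and -0.019 to 0.017 with 1 sample left out. LMCD1 had an adjusted p of 0.0518 with upper quartile scaling. DESeq2 called 520 genes in all. The causes were not tested.

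Replicate numbers did not pair the samples: deviations of same-numbered samples correlated at -0.204, 0.263 and -0.319 over 11997 genes. Of the Olaparib samples, only replicate 2 correlated best with the DMSO sample of its own number. The highest correlation, 0.484, was between Olaparib replicate 3 and DMSO replicate 1. With the replicate number as a block, 1322 genes passed in all and 12 in the pathway lists, and SMAD3 had a log2 fold change of 0.101 and an adjusted p of 0.0434. With the union of all exons as the length, an alternative chosen after seeing the data, the mean RPKM of 9 of the 10 genes moved by more than 1 SD, and the order changed as described. Counting error weighs most on low counts, such as those of TGFB3 and TGFBR3.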
